A study of Mus musculus with 42 samples.

Results

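Mouse embryonic stem cells that report Gsc with GFP were differentiated towards anterior definitive endoderm, and the cells of day 5 with low GFP (d5Glow) are described here against the GFP-positive cells of day 4 (d4G+). The 6 arrays were chosen by their titles, 3 of d5Glow and 3 of d4G+, from the 42 arrays of the series. Both groups are untreated and come from 1 reporter line, which carries GFP at the Gsc locus and RedStar at the Hhex locus. They were grown with the same regimen of Activin, BMP4 and growth factors and were separated by fluorescence-activated cell sorting. A gate on GFP is a gate on 1 gene in 1 line, so each group is a range of reporter levels and not a cell type. The other groups used here are the cells of day 5 with high GFP (d5Ghigh) or without GFP (d5G-), the GFP-negative cells of day 4 (d4G-) and the GFP-positive cells of day 3 (d3G+), with 3 arrays each. The deposited description gives each group as 3 independent experiments. Levels are the deposited normalised log2 intensities, in which a step of 1 is a doubling.

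The primitive streak is the strip of the gastrulating embryo where epiblast cells leave the epithelium and become mesoderm or endoderm. Its cells express T, Mixl1 and Eomes. Where Nodal signalling is high, at the anterior end, Gsc and later Sox17 mark cells on the way to definitive endoderm, while cells under BMP and Wnt signalling at the posterior end pass through a Mesp1-positive stage into lateral plate, blood, vessel and heart mesoderm. Nascent mesoderm switches off its streak genes as it moves away. The comparison asks whether cells that were low for Gsc on day 5 still had the pattern of the streak-like cells of day 4, or had genes of a mesoderm course.

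The gated gene was read first. Gsc, a homeobox factor of the anterior streak, read 11.55, 11.74 and 11.85 on the d4G+ arrays and 9.46, 10.21 and 12.41 on the d5Glow arrays. In d5Ghigh it read 12.23, 12.58 and 14.06, and in d5G- 8.45, 8.75 and 9.80. With the same replicate number d5Glow was thus always between d5G- and d5Ghigh, but the array labelled d5Glow replicate 3 was above all 3 d4G+ arrays and above d5Ghigh replicate 1. The mean difference from d4G+ was -1.02 (SE 0.47, adjusted p = 0.456) and did not pass the test. Without the array labelled d5Glow replicate 3 it was -1.88 (SE 0.41, adjusted p = 0.0149), still outside the call described below.

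The array labelled d5Glow replicate 3 stood apart from the other two of its group over the whole array as well. The Euclidean distance over all probes was 85.7 between d5Glow replicates 1 and 2 and up to 128.8 when replicate 3 was one of the pair. Its nearest array was d4G+ replicate 3, which lay on the same slide (slide 4), while d5Glow replicates 1 and 2 shared slide 2. Slide 4 is the only slide that held both groups. Correlations between replicates were 0.981 to 0.992 in d5Glow and 0.987 to 0.99 in d4G+, and 27414 to 33493 of 55681 probes were well above background on the 6 arrays. In replicate 3, the deviations of d5Glow from its group mean correlated with those of d4G+, d5Ghigh and d5G- at 0.5, 0.6 and 0.62. Gsc was highest in replicate 3 of each of these groups. Part of what sets the array apart was thus shared by the arrays with its number. Whether this array holds the cells that its label names was not tested, and the d5Glow means below include it. Values without it are given for the results that it moved most. The list values and list calls with 1 array left out were added after the data were seen.

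As whole profiles, the d5Glow arrays lay about as far from d4G+ as from d5Ghigh. The median distance was 111.6 to d4G+ (91.5 to 133.5 over 9 pairs of arrays) and 110.3 to d5Ghigh (85.7 to 142.9), with overlapping ranges that also reached into the distances within d5Glow. It was 123.1 to d5G- and 129.3 to d3G+, and d5Ghigh lay 128.8 from d4G+. These distances are a description and were not tested.

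From d4G+ to d5Glow, 20 genes rose and 10 fell. A gene, meaning a RefSeq accession, was called when any of its probes passed an adjusted p of 0.01 together with a log2 fold change of 1.5 in size. That is 0.0901% and 0.045% of 22201 genes tested, or 0.135% in all. Counted as symbols, 30 of 20957 were called, or 0.143%. Of the genes that rose 19 of 20, and of those that fell 10 of 10, had every d5Glow array beyond every d4G+ array. Such a separation was also found for 9.47% of all symbols upwards and 9.16% downwards. At an unadjusted p under 0.05, the measure given for lists without a call, 7.95% of all symbols were higher and 6.53% lower. The calls use the spread of all 42 arrays, of which 33 are untreated. The others are day 6 arrays of cells given an EZH2 inhibitor or its DMSO control, on other slides and with another software version. With the 33 untreated arrays alone 10 genes rose and 5 fell. A fit to the 6 arrays alone called 0 genes, with 2827 at an unadjusted p under 0.05 and 0.164 as its lowest adjusted p. With the slide as a block 18 rose and 6 fell, with scaling by the 75th percentile in place of quantile normalisation 20 and 2, and with a background offset of 50 the counts were 12 and 12. Without the array labelled d5Glow replicate 3 they were 63 and 24, and leaving out any of the other 5 arrays gave 6 to 12 genes up and 2 to 5 down. As symbols, 0.41% were called without d5Glow replicate 3, and this share applies to each call reported below without it. That fit kept d4G+ replicate 3, which lay on the same slide as the array left out. The array left out was singled out after the data were seen, and its nearest array is a d4G+ array. Leaving it out therefore favours larger differences and more calls, so calls without it are a description only.

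Of the 10 genes that fell, 4 encode transcription factors. Cdx1, a caudal-type homeobox factor of the posterior streak and body axis, read 8.89, 9.53 and 9.33 in d4G+ and 6.18, 7.24 and 6.71 in d5Glow. It fell by 2.54 on the log2 scale (SE 0.44, adjusted p = 0.00291). The levels were already lower in d4G+ than in d3G+, where Cdx1 read 11.26, 10.81 and 11.39. Sp8, a zinc finger factor of the tail and limb buds, read 8.90, 10.37 and 8.96 in d4G+ and 6.73, 7.88 and 7.11 in d5Glow, a change of -2.17 (SE 0.37, adjusted p = 0.00278). Vax1, a homeobox factor best known from the ventral forebrain, read 9.66, 9.10 and 9.22 against 6.76, 7.22 and 8.18 (log2 change -1.94, adjusted p = 0.0095), and both of its probes were called. Tlx2, a homeobox factor of the enteric nervous system, had a log2 change of -1.51 (adjusted p = 0.00751). On the probe shown, no d5Glow array reached a d4G+ array in any of these 4 factors. The other probe of Sp8 had a log2 change of -0.28 (adjusted p = 0.749) with overlapping groups.

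The other genes that fell have varied roles. Dusp2, a phosphatase that switches off ERK and other MAP kinases, read 11.91, 11.97 and 12.41 in d4G+ and 9.45, 10.38 and 10.92 in d5Glow (log2 change -1.84, SE 0.34, adjusted p = 0.0054). Car3, a carbonic anhydrase, read 9.25, 9.72 and 8.83 against 6.26, 7.10 and 7.70, with a log2 change of -2.25 (adjusted p = 0.00278). Both genes were again separated between the groups. Lor, the cornified envelope protein loricrin, had a log2 change of -2.08, Pkp1, a desmosome plakophilin, of -1.67, Ube2l6, an enzyme of ISG15 conjugation, of -1.51, and Sowahd of -1.54. Calls with an array left out were followed on the probe shown. Tlx2 lost its call when any 1 of the 6 arrays was left out, and Lor, Vax1 and Dusp2 kept theirs only without d5Glow replicate 3. The other called probe of Vax1 (log2 change -2.11, adjusted p = 0.000393) was not followed in this way.

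Among the genes that rose, Spink1, a secreted serine protease inhibitor of visceral endoderm and gut, changed most. It read 7.82, 5.73 and 5.97 in d4G+ and 10.34, 10.07 and 8.96 in d5Glow, a change of 3.28 (SE 0.41, adjusted p = 6.3e-05). The increase did not end there: d5Ghigh read 13.34, 12.92 and 11.97, and the GFP-positive cells of day 6 read 14.39 to 15.01 without RedStar and 15.55 to 15.63 with it. Apoe, the lipoprotein that carries lipids between cells, read 13.58, 12.20 and 13.24 in d4G+ and 15.25, 14.58 and 14.41 in d5Glow (log2 change 1.74, SE 0.31, adjusted p = 0.00299), close to its levels of 15.12, 14.62 and 14.39 in d5Ghigh. Ctsh, the lysosomal protease cathepsin H, rose by 1.68 (adjusted p = 0.00868).

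Muscle regulators and cell surface proteins were also among the genes that rose. Myocd, the coactivator of serum response factor in heart and smooth muscle, read 6.89, 5.45 and 6.24 in d4G+ and 8.29, 8 and 8.35 in d5Glow (log2 change 2.02, SE 0.33, adjusted p = 0.00222). Ppp1r14a, which inhibits myosin phosphatase in smooth muscle, rose by 1.99 (adjusted p = 0.00278), and Smtnl2, a smoothelin-like protein, by 1.76 (adjusted p = 0.00299). Lgr5, the R-spondin receptor that amplifies Wnt signalling, read 6.82, 7.19 and 7.01 against 8.53, 8.64 and 9.57 (log2 change 1.90, adjusted p = 0.0054), and its call was lost when any 1 of the 6 arrays was left out. Frem1, a basement membrane protein, rose by 2.33 (adjusted p = 0.00132). Insrr, an orphan relative of the insulin receptor, rose by 1.82 (adjusted p = 0.00222).

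The remaining genes that rose include Bmf, a BH3-only promoter of cell death, with a log2 change of 2.42 (adjusted p = 0.00375), and Srgap3 with 2.13 (adjusted p = 6.3e-05). Gamt, which makes creatine, rose by 1.8, Dbndd1 by 1.82, Parm1, a mucin-like membrane protein, by 1.63 and Acss1, a mitochondrial acetyl-CoA synthetase, by 1.6. Tm7sf3, Sema5a, a semaphorin, Clic6, a chloride channel protein, and Rsph9, a cilium protein, lie outside the rule for named genes and rose by 1.58, 1.55, 1.53 and 1.53. Srgap3 and Tm7sf3 were each called by 1 probe only. The other probes of Srgap3 had log2 changes of 0.77 and 0.69 (adjusted p = 0.128 and 0.154). Those of Tm7sf3 had 0.54 and 0.1 (adjusted p = 0.405 and 0.994). Followed on the probe shown, Spink1, Srgap3, Dbndd1 and Gamt were the 4 of 25 named genes that kept their call whichever array was left out. Art4, an ectoenzyme of the ADP-ribosyltransferase family, was also called by 1 probe only. That probe was not well above background on any d4G+ array and was on 3 of 3 d5Glow arrays, at least 2.46-fold higher, while the brighter probe of Art4 had a log2 change of 0.58 (adjusted p = 0.579).

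The genes that rose or fell in d5Glow are set beside the other gates of day 5, which share control arrays or day with them. From d4G+ to d5Ghigh, the genes that rose and those that fell in d5Glow had median log2 changes of 1.79 and -2.14, beside 1.78 and -1.89 in d5Glow. Both comparisons use the d4G+ arrays on which the genes were chosen, so the likeness is no result. In the GFP-negative cells, from d4G- to d5G-, the medians were 1.08 and -1.06, with 0 over all symbols. The difference between the change in d5Glow and the change in the GFP-negative cells was tested as an interaction in limma, and 0 genes passed (0% of 22201), with 482 at an unadjusted p under 0.05. Within slide 4 alone, replicate 3 against replicate 3, the changes of the 25 named genes were 1.04 to 2.98 in size with a median of 1.52. Their direction there was fixed by the choice of genes whose groups did not overlap.

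**Figure D1:**
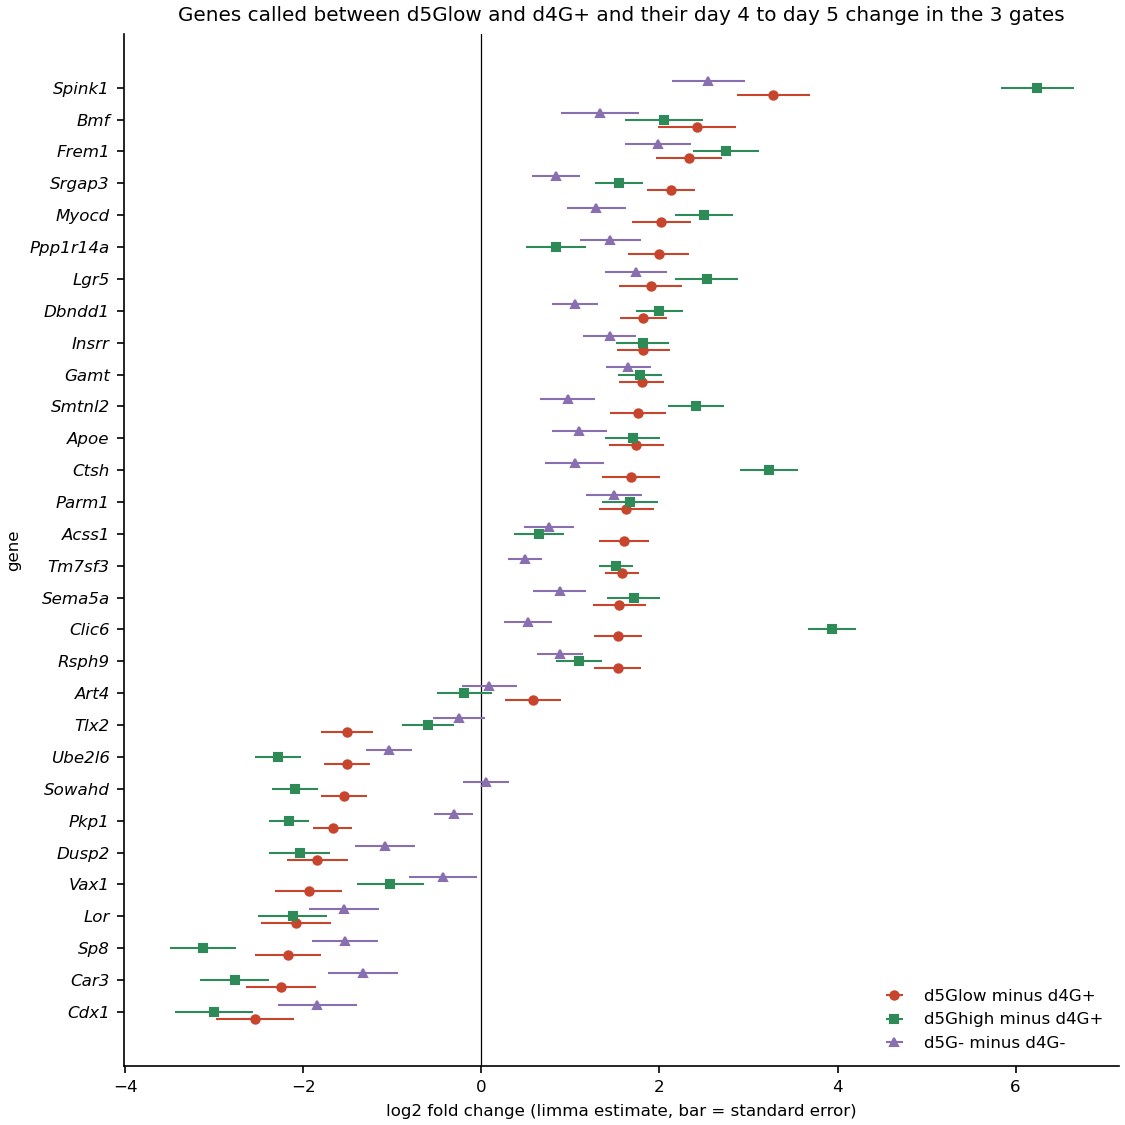
Log2 fold changes of the 30 called genes (horizontal axis; points with standard errors) for d5Glow against d4G+, d5Ghigh against d4G+ and d5G- against d4G-. Spink1 was the gene with the largest increase in d5Glow (3.28) and Cdx1 the one with the largest decrease (-2.54); Art4 is drawn by its brighter probe (0.58).

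Promoters were read for the called genes because they moved together over 1 day. RefSeq windows of build GRCm38.p6, from 250 bases before to 50 bases after a start, were held for 18 of the 30 genes. Letters of binding motifs were searched on both strands: AGATAA for GATA factors, AGGTGTGA for T-box factors, CTTTGAT for TCF/LEF, through which Wnt acts, and TGTTTAC for Fox factors. None of these contains another. Of all 32851 promoter windows, 11.2% held the GATA letters, 1.28% the T-box letters, 3.73% the TCF/LEF letters and 3.65% the Fox letters. These are shares of single windows, whereas a gene counts below if any of its windows matched, and the 18 genes had 25 windows. Among the 12 genes that rose, Art4 held the GATA letters and Apoe the Fox letters. Among the 6 that fell, Vax1 held the TCF/LEF letters, and none of the 18 held the T-box letters. The windows of Vax1 (chr19:59170348-59170647, minus strand) and Apoe (chr7:19698349-19698648, minus strand) are shown for their matches, in capitals, and a window of Sp8 (chr12:118846079-118846378, plus strand) as 1 without a match. All run 5′ to 3′ in the direction of the gene, and a match is a description of letters only.
Vax1: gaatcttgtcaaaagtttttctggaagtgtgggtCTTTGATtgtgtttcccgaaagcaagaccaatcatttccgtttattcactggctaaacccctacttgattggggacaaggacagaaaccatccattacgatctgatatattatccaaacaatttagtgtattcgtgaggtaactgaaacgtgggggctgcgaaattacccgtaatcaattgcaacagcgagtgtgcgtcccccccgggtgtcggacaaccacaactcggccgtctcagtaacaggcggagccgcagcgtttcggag
Apoe: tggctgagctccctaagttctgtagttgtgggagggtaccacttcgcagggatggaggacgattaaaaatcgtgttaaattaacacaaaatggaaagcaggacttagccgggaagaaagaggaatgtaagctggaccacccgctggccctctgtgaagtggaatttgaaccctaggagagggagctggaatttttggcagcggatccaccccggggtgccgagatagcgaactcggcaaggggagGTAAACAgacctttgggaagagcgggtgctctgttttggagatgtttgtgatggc
Sp8: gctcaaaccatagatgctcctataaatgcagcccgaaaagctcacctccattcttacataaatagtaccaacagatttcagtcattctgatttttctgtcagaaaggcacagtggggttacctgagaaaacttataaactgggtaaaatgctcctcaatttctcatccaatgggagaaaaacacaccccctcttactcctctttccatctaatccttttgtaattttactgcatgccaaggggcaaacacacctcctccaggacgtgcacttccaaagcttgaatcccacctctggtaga

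Genes of the primitive streak and nascent mesoderm were lower in d5Glow as a list. This list, like the others, was chosen with earlier results of these data known. Its shares beside those of all symbols are a description. Of 19 members 2 fell by the call, Cdx1 and Sp8, 4 were lower and 0 higher at an adjusted p of 0.05 or less (0.592% and 1.16% of all symbols were) and 18 had a lower mean, against 50.5% of all symbols. For 10 of the 19 (52.6%) every d5Glow array was below every d4G+ array, against 9.16% of all symbols. The median log2 change was -1.05, with 0 over all symbols, and lay between -0.94 and -1.24 in the other scalings and with the slide as a block. In sorted populations such as these, fewer cells of a type and less RNA per cell cannot be told apart. The median was -0.58 with 0 members called without d4G+ replicate 2, and -0.82 with 0 called without d5Glow replicate 1. It was -1.28, with only Sp8 called, without d4G+ replicate 3.

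The single members of this list differ in how far they moved. Mesp1, the bHLH factor of nascent and cardiac mesoderm, read 13.11, 13.31 and 12.51 in d4G+ and 11.45, 11.39 and 10.38 in d5Glow. Its change of -1.90 (SE 0.72, adjusted p = 0.28) did not pass the test although the arrays did not overlap, and it was still higher than in d5G- (9.72, 9.79 and 7.01). Sp5, a direct target of Wnt signalling, read 13.22, 13.46 and 13.56 against 10.99, 11.46 and 12.03 (log2 change -1.92, adjusted p = 0.127). Some further members were chosen after their values were seen. T, the founding T-box factor of the streak, read 10.97, 12.46 and 11.37 against 9.22, 10.56 and 11, with overlapping groups (log2 change -1.34, adjusted p = 0.264). Mesp2, the paralogue of Mesp1, had -1.55 (adjusted p = 0.018) and Snai1, the repressor of E-cadherin, -1.34 (adjusted p = 0.0437). Eomes had -0.31, Wnt3 -0.34 and Nodal -0.27, none of which passed, and Wnt3a and Cdx4 were not well above background on any of the 6 arrays.

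**Figure D2:**
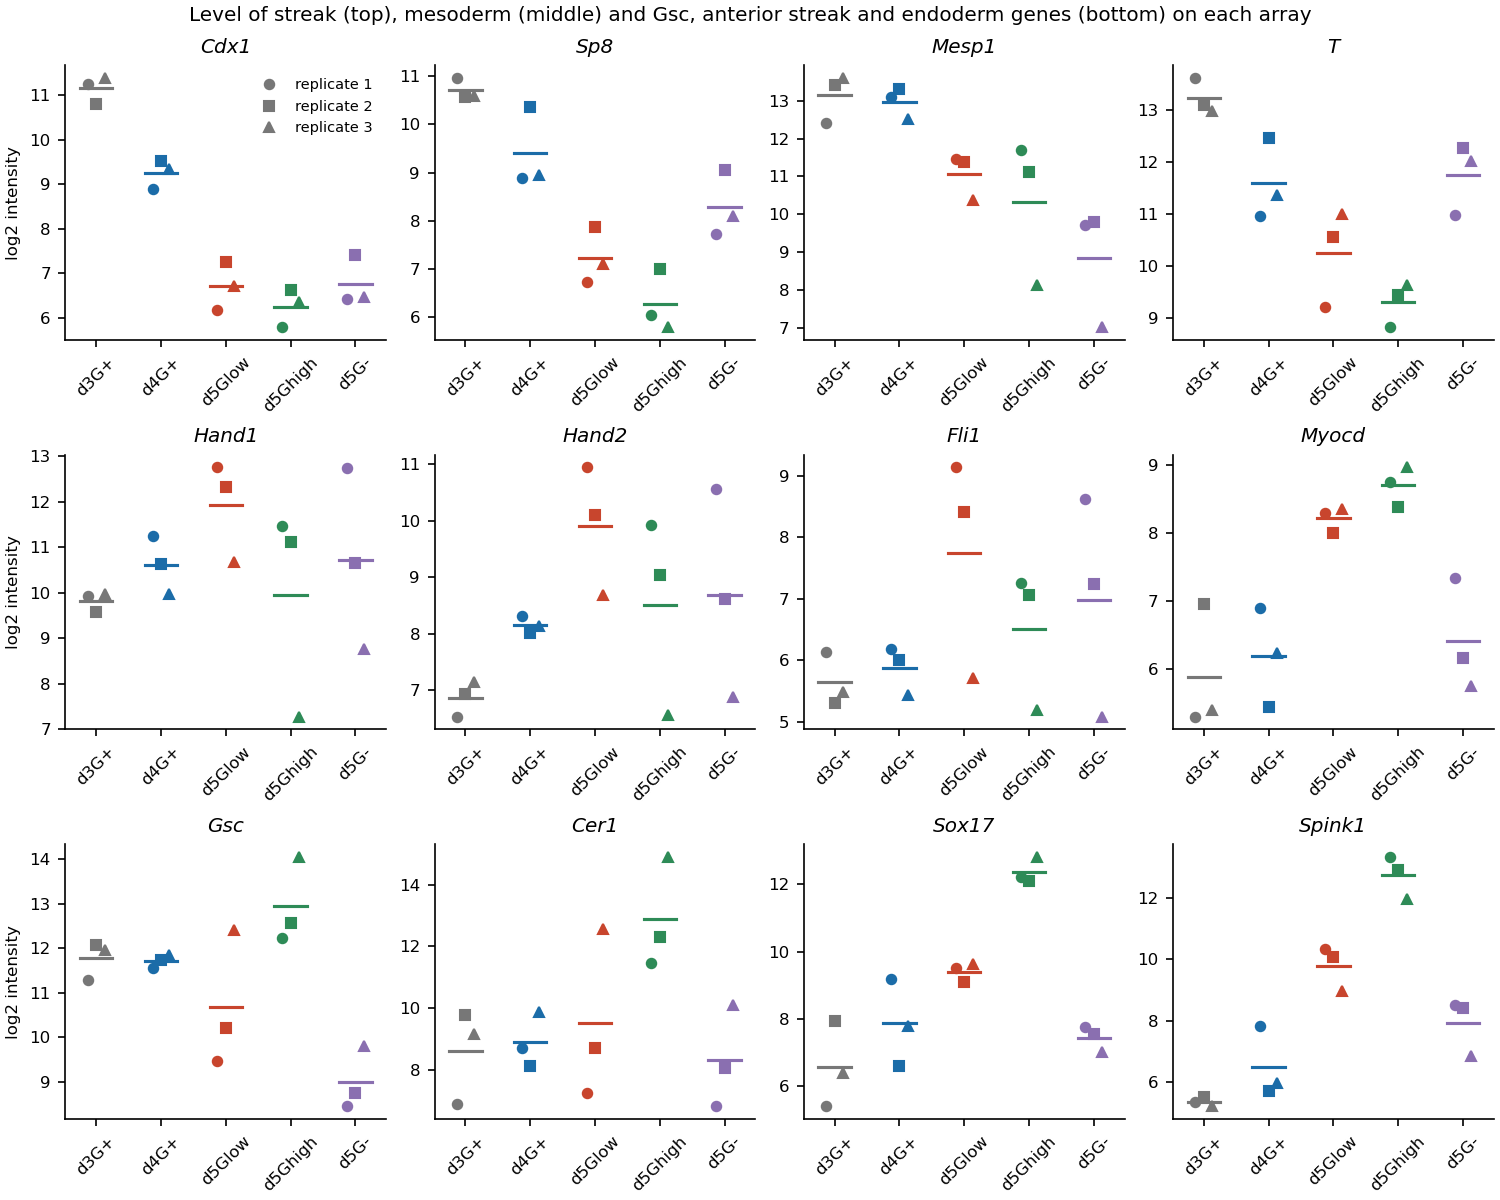
Normalised log2 intensity (vertical axis) of 12 genes on each array of d3G+, d4G+, d5Glow, d5Ghigh and d5G-; symbols mark the replicate number and bars the mean. Cdx1 and Sp8 are lower on all 3 d5Glow arrays than on any d4G+ array, Spink1 and Myocd are higher, and for Gsc and Cer1 the array labelled d5Glow replicate 3 is above the other two of its group.

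Mesoderm beyond the streak was divided into lineages. For lateral plate and extraembryonic mesoderm, 0 of 18 members were called and 2 were higher at an unadjusted p under 0.05 in limma. The median log2 change was 0.28 and 12 had a higher mean. Hand2, a bHLH factor of heart and limb mesoderm, read 8.32, 8.01 and 8.14 in d4G+ and 10.95, 10.11 and 8.68 in d5Glow (log2 change 1.76, SE 0.62, adjusted p = 0.227). Hand1, its paralogue in extraembryonic and lateral mesoderm, read 11.25, 10.63 and 9.98 against 12.76, 12.32 and 10.68 (log2 change 1.30, SE 0.83, adjusted p = 0.72). Tbx4, a T-box factor of allantois and hindlimb, read 4.59, 5.86 and 5.5 against 8.27, 7.02 and 5.26 (log2 change 1.53, adjusted p = 0.213). In all 3 genes d5Glow replicates 1 and 2 were above every d4G+ array, and replicate 3 was so in Hand2 only. Tbx20, a T-box factor of the lateral plate and heart, had a log2 change of 0.91 (adjusted p = 0.595). Without the third array the changes were 2.37 for Hand2, 1.92 for Hand1, 2.33 for Tbx4 and 1.43 for Tbx20 (adjusted p = 0.0666, 0.393, 0.0149 and 0.204), and none was called.

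The mean level over the 18 lateral plate genes was 9.63, 9.50 and 9.28 on the d4G+ arrays and 10.54, 10.05 and 9.08 on the d5Glow arrays. Replicates 1 and 2 of d5Glow were above all d4G+ arrays and replicate 3 was below them. Within slide 4, where both groups have their replicate 3, the difference was -0.2, and with the slide as a block the list median was 0.39. Without the array labelled d5Glow replicate 3 the list median was 0.67, with 13 of 18 members higher and still 0 called. Without d5Glow replicate 1 it was 0.03, with 9 members higher and 9 lower, and without replicate 2 it was 0.19. The same pattern of replicates ran through the day 5 gates: d5Ghigh read 10.07, 9.71 and 8.08 and d5G- 10.17, 8.97 and 7.69, so that replicate 3 was the lowest of every gate. With matched replicate numbers d5Glow was above d5Ghigh by 0.47, 0.34 and 1.00. At day 6 the same list read 7.66 to 8.08 in GFP-positive cells without RedStar.

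Of the blood and vessel genes 0 of 20 were called, with 4 higher and 1 lower at an unadjusted p under 0.05 in limma, and a median log2 change of 0.21. The list mean was 7.11, 7.11 and 7.12 in d4G+ and 7.55, 7.43 and 7.17 in d5Glow, so every d5Glow array was above d4G+, the third by little. Fli1, an ETS factor of endothelium and blood, read 6.18, 6.01 and 5.43 in d4G+ and 9.14, 8.41 and 5.71 in d5Glow (log2 change 1.88, SE 0.62, adjusted p = 0.169). Without d5Glow replicate 3, where 0.41% of all symbols were called, Fli1 was called with a change of 2.90. Runx1, a factor of blood formation, read 10.08, 9.29 and 9.61 against 11.05, 10.78 and 9.80, and the groups overlapped. Kdr, the VEGF receptor of early mesoderm, was chosen after its values were seen and read 11.14, 10.95 and 10.76 against 11.17, 10.62 and 11.01, a difference of -0.02. Of the haematopoietic markers 0 of 8 were called, with 1 at an unadjusted p under 0.05 in limma and a median of 0.03, and Hba-x and Spi1 were not well above background on any of the 6 arrays.

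Heart genes moved in both directions. Of 16 members Myocd rose, 0 fell by the call, and the median log2 change was -0.23. Actc1, cardiac alpha-actin, read 10.41, 11.68 and 11.08 in d4G+ and 6.53, 7.91 and 9.05 in d5Glow, and its change of -3.23 (SE 0.69, adjusted p = 0.0155) narrowly missed the call. Without d5Glow replicate 3 Actc1 was called, at -3.84. Tbx5, a T-box factor of the first heart field, read 6.75, 5.73 and 6.56 against 8.06, 7.88 and 7.52 (log2 change 1.47, adjusted p = 0.0602). Tagln, a smooth muscle actin-binding protein, had -1.39 (adjusted p = 0.192). The actin gene Actc1 and the actin-binding Tagln were lower and the regulators Myocd and Tbx5 higher on every d5Glow array than on any d4G+ array. Against d5Ghigh, d5Glow differed by -0.48 in Myocd and 0.2 in Tbx5. Neither passed in limma with the replicate number as a block (adjusted p = 0.657 and 0.932). Their rise was thus not shown to be particular to the low gate.

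Paraxial mesoderm, which forms the somites, had 0 of 17 members called and a median log2 change of -0.11, with 1 higher and 5 lower at an unadjusted p under 0.05 in limma. Dll3, a Notch ligand of the presomitic mesoderm, read 12.04, 12.54 and 12.18 in d4G+ and 9.82, 10.55 and 11.95 in d5Glow (log2 change -1.48, adjusted p = 0.0358). Dll1, the activating Notch ligand there, had -1.40 (adjusted p = 0.0142). Both were called without d5Glow replicate 3, at -2.07 and -1.60. Foxc1, a forkhead factor of presomitic mesoderm and somites, had -1.44 (adjusted p = 0.117). Meox1, a homeobox factor of the formed somites, went the other way and read 7.47, 6.87 and 7.31 against 9.14, 9.02 and 7.85 (log2 change 1.45, adjusted p = 0.115).

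Mesenchyme and matrix genes had 0 of 25 members called, with 4 higher at an unadjusted p under 0.05 in limma, and a median log2 change of 0.38. Col1a1, a chain of type I collagen, read 8.78, 10.25 and 9.69 in d4G+ and 12.32, 11.51 and 9.06 in d5Glow (log2 change 1.39, SE 0.93, adjusted p = 0.756). Twist2, a bHLH factor of mesenchyme, read 8, 8.28 and 8.02 against 10.43, 9.92 and 7.26. In both, the first 2 d5Glow arrays were above all d4G+ arrays and replicate 3 was not, and without it the changes were 2.34 and 2.08 (adjusted p = 0.307 and 0.182). Col6a1, a chain of type VI collagen, was higher on all 3 and had a log2 change of 1.27 (adjusted p = 0.116). Snai2, a repressor that favours the mesenchymal state, had 1.1 (adjusted p = 0.338), and without d5Glow replicate 3 it was called at 1.92. The list median was 0.75 without that array and 0.19 without d5Glow replicate 1. Within slide 4 the difference of list means was -0.2. Epithelial junction and keratin genes had 0 of 21 called, 1 lower at an unadjusted p under 0.05 in limma and a median of 0.16. That median was -0.21 without d5Glow replicate 3 and 0.37 without replicate 1.

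**Figure D3:**
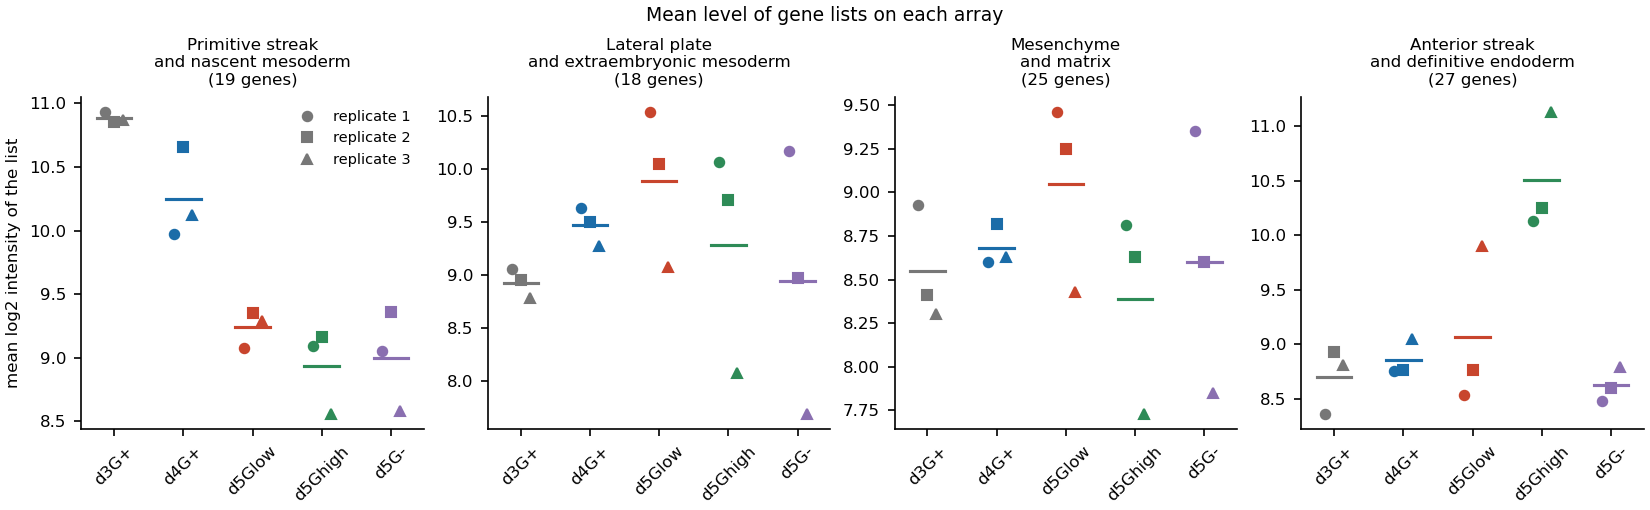
Mean log2 level of the members of 4 gene lists (vertical axis) on each array of the groups shown, with the replicate number as symbol. Streak genes read 9.97 to 10.66 in d4G+ and 9.08 to 9.35 in d5Glow; for the lateral plate and mesenchyme lists the array labelled d5Glow replicate 3 is below the other two, and for the anterior streak and endoderm list it is above them.

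Genes of the anterior streak and definitive endoderm had 0 of 27 members called from d4G+, with 2 higher and 2 lower at an unadjusted p under 0.05 in limma, and a median log2 change of 0.32. Sox17, the HMG-box factor that defines endoderm, read 9.20, 6.60 and 7.80 in d4G+ and 9.50, 9.10 and 9.62 in d5Glow (log2 change 1.54, adjusted p = 0.0779). Trh, the precursor of thyrotropin-releasing hormone, had 1.32 (adjusted p = 0.441). Fzd5, a Wnt receptor, read 5.85, 5.92 and 6.22 against 6.50, 5.67 and 8.36. Genes chosen after their values were seen show how far the third array differs: Cer1, a secreted Nodal and BMP inhibitor, read 7.26, 8.71 and 12.55 in d5Glow, and Otx2, a homeobox factor of anterior identity, 11.15, 11.90 and 14.04. Without it the changes from d4G+ were -0.93 for Cer1 and -1.47 for Otx2, beside 0.36 for Trh and 0.09 for Fzd5. On the first 2 arrays Otx2 was below its d4G+ levels of 12.71, 12.92 and 13.37, and on the third above them. The list mean was 8.75, 8.76 and 9.05 in d4G+ and 8.53, 8.76 and 9.90 in d5Glow. The highest list means of d5Ghigh and d5G-, 11.13 and 8.79, were also those of replicate 3. Within slide 4 the difference was 0.85. The list median was -0.1 without d5Glow replicate 3 and 0.22 without replicate 1.

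Of the markers of visceral and primitive endoderm, a lineage that definitive endoderm resembles in many genes, a few were higher in d5Glow and most moved little. The mean over 14 members was 7.23, 6.83 and 6.89 in d4G+ and 7.79, 7.74 and 7.43 in d5Glow. Apoe and Spink1 rose by the call, and 6 of 14 (42.9%) had every d5Glow array above every d4G+ array, against 9.47% of all symbols. The median log2 change was 0.17 and 3 members had a lower mean. Hnf4a, a nuclear receptor of visceral endoderm and liver, read 5.57, 4.79 and 4.67 against 7.61, 7.13 and 5.98 (log2 change 1.89, adjusted p = 0.0133). It was well above background on 1 of 3 d4G+ arrays and 3 of 3 d5Glow arrays, and without d5Glow replicate 3 it was called, at 2.36. Of the 14 members 8 were well above background on all 6 arrays, while Afp, Apoa1 and Cubn were so on none. The part that another endoderm lineage has in these values was not tested.

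**Figure D4:**
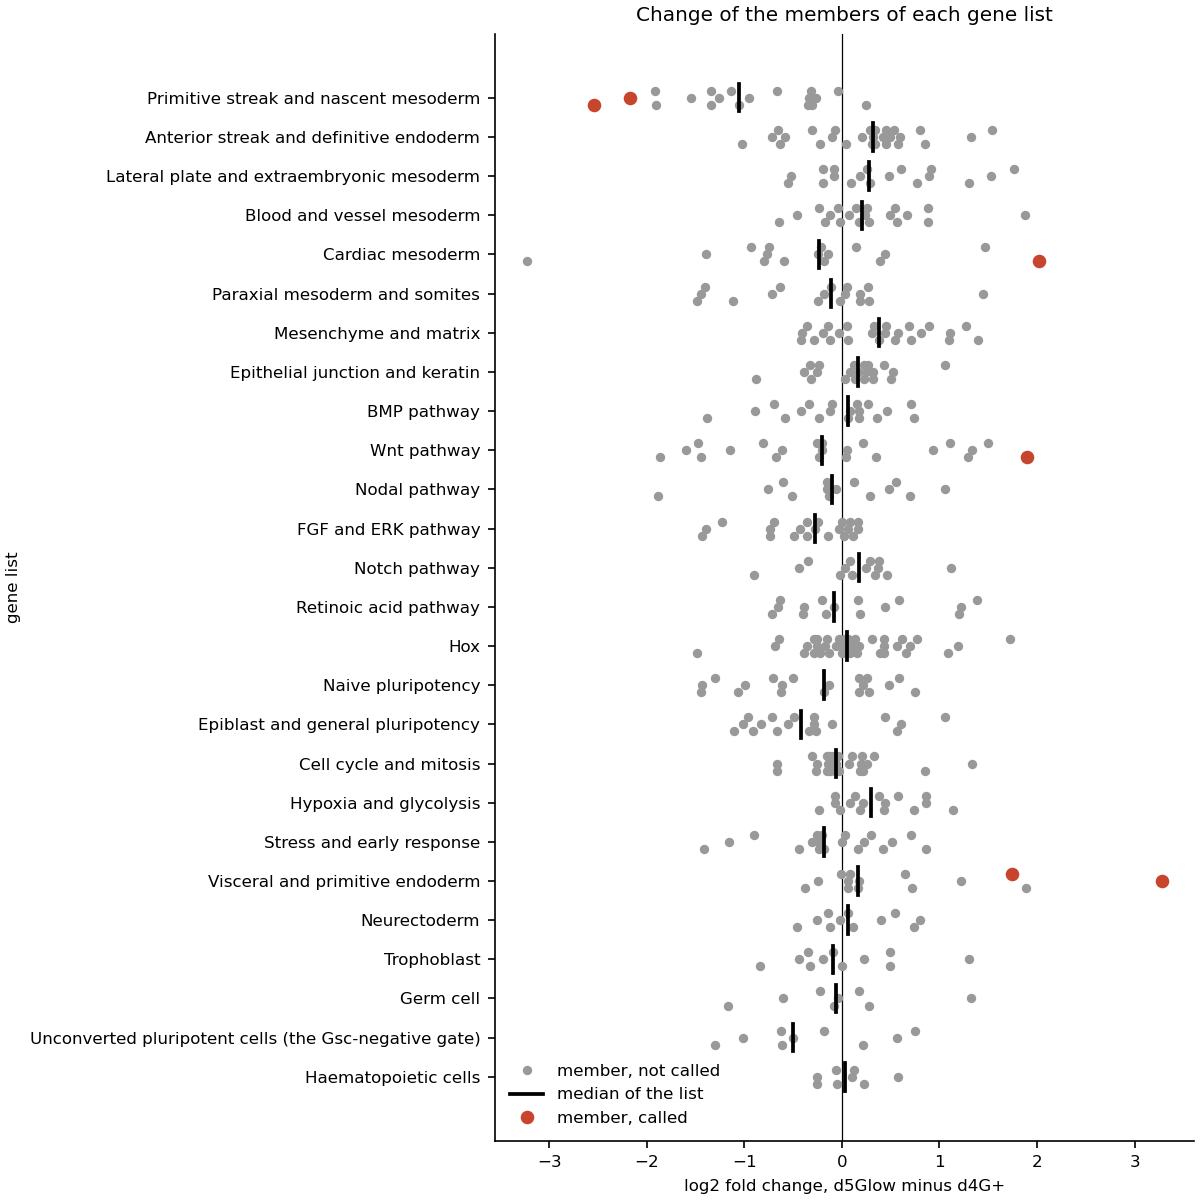
Log2 fold change from d4G+ to d5Glow of every member (points) of each gene list (rows), with called genes in red and the list median as a bar. The streak list has the lowest median (-1.05) and its called members are Cdx1 and Sp8, while the medians of the lateral plate (0.28), mesenchyme (0.38) and anterior streak and endoderm (0.32) lists lie near 0.

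Wnt pathway genes were ordered by role. Of 22 members Lgr5 rose, 0 fell by the call and the median log2 change was -0.20. Among feedback genes and inhibitors, Axin2, a target that marks active signalling, read 8.43, 8.75 and 7.91 in d4G+ and 7.07, 6.93 and 6.30 in d5Glow (log2 change -1.60, adjusted p = 0.0406). Frzb, a secreted Wnt binder, read 9.26, 9.50 and 9.23 against 6.68, 7.31 and 8.43 (log2 change -1.86, adjusted p = 0.0497). The 2 genes were separated between the groups but outside the call. Among ligands, Rspo2, a partner of Lgr5, was not well above background on any d4G+ array and was on 2 of 3 d5Glow arrays, at least 2.06-fold higher (adjusted p = 0.0127).

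Of the Nodal pathway 0 of 14 members were called, with 3 higher and 2 lower at an unadjusted p under 0.05 in limma, and a median log2 change of -0.10. The coreceptors parted: Tdgf1 read 12.10, 12.64 and 12.65 in d4G+ and 9.83, 10.37 and 11.55 in d5Glow (log2 change -1.88, adjusted p = 0.0612), and its paralogue Cfc1 read 11.43, 10.53 and 10.53 against 12.10, 11.67 and 11.90 (log2 change 1.06, adjusted p = 0.23). Neither passed. Smad3, which carries the signal to the nucleus, was 0.70 higher (adjusted p = 0.0324). FGF and ERK genes had 0 of 21 called, with 5 lower at an unadjusted p under 0.05 in limma, and a median of -0.28. Their ligands Fgf4 and Fgf18 had -1.43 and -1.23 (adjusted p = 0.115 and 0.0387) and the ERK phosphatase Dusp6, a feedback target, -1.39 (adjusted p = 0.0134), with all 3 lower on every d5Glow array. Dusp6 was called without d5Glow replicate 3, at -1.71.

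In the BMP pathway 0 of 19 were called, with 1 higher and 3 lower at an unadjusted p under 0.05 in limma, and a median of 0.06. Fst, the activin and BMP binder follistatin, read 12.43, 13.59 and 12.89 against 11.38, 11.74 and 11.65 (log2 change -1.38, adjusted p = 0.0456). Notch genes had 0 of 14 called, 1 higher and 1 lower at an unadjusted p under 0.05 in limma, and a median of 0.18, with the receptor Notch3 at 1.12 (adjusted p = 0.0446). Retinoic acid genes had 0 of 15 called, 4 higher and 3 lower at an unadjusted p under 0.05 in limma, and a median of -0.08.

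Hox genes, which give position along the body axis, had 0 of 39 called, 1 higher and 1 lower at an unadjusted p under 0.05 in limma, and a median of 0.05. Their mean level varied more among the arrays of a group than between the 2 groups, at 5.76, 7.10 and 5.93 in d4G+ and 6.88, 6.74 and 5.54 in d5Glow. Without d5Glow replicate 3, 31 of 39 had a higher mean and the median was 0.44. Without d5Glow replicate 1 it was -0.12, with 25 of 39 lower, and without replicate 2 it was -0.06. Without d4G+ replicates 1, 2 and 3 it was -0.1, 0.39 and -0.06, so the sign depended on the array left out. Hoxb5 read 4.63, 5.81 and 4.82 against 7.19, 6.95 and 6.29 (log2 change 1.72, adjusted p = 0.0586) and was well above background on 1 of 3 and 3 of 3 arrays. Hoxb1 was lower and not well above background on any d5Glow array, at least 2.45-fold below d4G+ (adjusted p = 0.294).

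Pluripotency genes were tested for cells that had not left the epiblast state. Naive genes had 0 of 19 called, 1 higher and 5 lower at an unadjusted p under 0.05 in limma, and a median of -0.18. Epiblast genes had 0 of 18 called, 2 higher and 4 lower, and a median of -0.42 (-0.72 without d5Glow replicate 3 and -0.12 without replicate 1). Nanog read 8.81, 9.79 and 9.45 in d4G+ and 7.30, 8.13 and 8.74 in d5Glow (log2 change -1.30, adjusted p = 0.08). Pou5f1, encoding OCT4, read 10.17, 12.46 and 11.99 against 9.41, 10.14 and 12.04, with overlap (log2 change -1.01, or -1.77 without the third d5Glow array). Cell cycle genes had 0 of 26 called, 3 higher and 2 lower at an unadjusted p under 0.05 in limma, and a median of -0.06, and the one past adjusted p, the inhibitor Cdkn1b, was 0.85 higher (adjusted p = 0.00883), under the fold threshold. Hypoxia genes had 0 of 16 called, 3 higher at an unadjusted p under 0.05 in limma and a median of 0.30, and stress genes 0 of 19, 1 higher and 2 lower at that p and a median of -0.18. Neurectoderm, trophoblast and germ cell markers had 0 called and medians of 0.06, -0.09 and -0.06, with 1, 0 and 3 genes at an unadjusted p under 0.05.

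The 2 GFP gates of day 5 were compared directly, which removes the d4G+ arrays. In d5Glow 7 genes were higher (0.0315% of 22201) and 53 lower (0.239%) than in d5Ghigh, 0.27% in all (7 and 52 symbols, 0.0334% and 0.248%), and with the replicate number as a block 11 and 65. With the fold change rounded, which adds Spon2 (-1.5), the symbols lower in d5Glow were 53. Of these 53 symbols 44 had a d5Glow mean between those of d4G+ and d5Ghigh, but only 2 were called between d5Glow and d4G+. Sox17 read 12.21, 12.11 and 12.82 in d5Ghigh, and the difference of d5Glow from it was -2.97 (SE 0.43, adjusted p = 0.000127). Pga5, a pepsinogen, differed by -3.72 (adjusted p = 9.62e-06), Hkdc1, a hexokinase domain protein, by -3.48 (adjusted p = 1.15e-05) and Irs4, an insulin receptor substrate, by -3.45 (adjusted p = 1.23e-06). Spink1 differed by -2.95 (adjusted p = 8.83e-05). Of the anterior streak and endoderm list 5 of 27 were lower in d5Glow by the call, Sox17, Hhex, Shisa2, Prdm1 and Fzd5, and the list median was -1.52. With the block Gsc and Foxa1, a forkhead factor of endoderm, were called as well. Enpp2, which makes lysophosphatidic acid, was higher in d5Glow by 2.38 (adjusted p = 0.00538) and Sox2, a pluripotency and neural factor, by 1.73 (adjusted p = 0.000127).

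For the mesoderm lists 0 members were called between d5Glow and d5Ghigh, with or without the block. The list medians of this difference were 0.67 for lateral plate, 0.65 for mesenchyme, 0.51 for heart, 0.20 for blood and vessel and 0.12 for streak genes, against 0.02 over all symbols. With matched replicate numbers the list mean was higher in d5Glow in each pair for mesenchyme (0.65, 0.62 and 0.7) and heart (0.45, 0.45 and 0.57). This was not particular to mesoderm. Hox genes (0.73, 0.83 and 0.48) and markers of unconverted pluripotent cells (0.57, 0.85 and 0.78) were also higher in each pair. Naive pluripotency, stress and cell cycle genes were so too, while anterior streak and endoderm genes were lower in each (-1.6, -1.49 and -1.23). Twist2 was 2.12 higher in d5Glow (adjusted p = 0.266, and 0.0509 with the block) and Hand1 1.97 higher (adjusted p = 0.429, and 0.183 with the block), and neither passed. Streak genes had list means of 9.08, 9.35 and 9.29 in d5Glow and 9.09, 9.16 and 8.56 in d5Ghigh. With matched replicate numbers the differences were -0.01, 0.19 and 0.73, close in replicates 1 and 2 and higher in d5Glow in replicate 3. From d4G+ to d5Ghigh the streak median was -1.03, on the same d4G+ arrays.

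Against d5G-, 30 genes were higher in d5Glow (0.135%) and 139 lower (0.626%, or 0.663% of symbols), 0.761% in all. Of the 9 markers of unconverted pluripotent cells 6 were lower by the call, Zfp42, Esrrb, Klf2, Tcl1, Utf1 and Tdh, with a list median of -2.41. Called members of the streak, mesoderm and endoderm lists were mostly higher in d5Glow: the transcription factors Mixl1, Eomes, Tbx5, Myocd, Gata1, Sox17 and Gata6 and the Wnt inhibitor Sfrp5 were, while Wnt8a, a streak ligand, and Tcf15, a somite factor, were lower. Hand2 and Hand1, which did not pass from d4G+ to d5Glow, differed by 3.05 and 2.61 from d4G- to d5G- (adjusted p = 0.0387 and 0.257), again outside the call. The difference between d5Glow and d5G- did not pass in either (adjusted p = 0.564 and 0.826).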

How the data were processed

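RNA of sorted cells was measured on one-colour Agilent mouse arrays with Cy3. The authors deposited scanner files with intensity per spot and a table of log2 intensity, which they had corrected for background by normexp (offset 10) and quantile normalised in limma. The deposited log2 values were used. On each array they had a correlation of at least 0.999989 with values recomputed from the intensity files. A linear model with 1 mean for each of 14 groups was fitted with limma 3.58.1 (R 4.3.3) to the 42 arrays together, and p values were adjusted by Benjamini-Hochberg over all 55681 probes. An exact permutation test of 3 against 3 cannot go below 0.1. P values measure the spread between these arrays. Of the probes 28066 carry 22201 RefSeq accessions, and names came from a RefSeq table of GRCm38.p6 used for names and promoters. A gene is shown by its probe with the largest mean. Named genes are the called ones with no overlap between groups, up to 15 a direction, up to 4 members of each list, and 5 a direction against d5Ghigh, and others are said to be chosen after their values were seen. The genes, 20 lists and 6 marker lists were chosen with earlier results of these data known. "At least" folds set the brighter mean against the lowest signal of probes well above background. Same-numbered d5Glow and d5Ghigh arrays deviated together (correlations 0.44, 0.21 and 0.6), as did d5Glow and d5G- (0.43, 0.28 and 0.62). The number of arrays limits the precision. The procedure was tested on simulated data for d5Glow against d4G+ with 22201 genes: 2% of genes changed by 1 on the log2 scale were called, 96% of those changed by 2, 98% at 2.5 and 100% at 3, with 0 unchanged genes called. The simulated noise was normal and independent between arrays, with the spread of each probe pooled over the 42 arrays. It held no deviation shared by slide or replicate number, so these rates need not hold for the real arrays.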

Additional observations from a re-analysis of the deposited data

Results flagged for a closer look

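Results are listed here where d5Glow and d5Ghigh differed by the test of that difference, which is also the test of whether their changes from d4G+ differ. Against d5Ghigh 53 genes were lower in d5Glow and 7 higher. The largest negative differences were those of Pga5 (-3.72), Hkdc1 (-3.48), Irs4 (-3.45), Sox17 (-2.97) and Rgs8 (-2.96, a regulator of G protein signalling). Hkdc1 and Rgs8 were not separated between d5Glow and d4G+, with differences of 0.53 and 0.21, while d5Ghigh was higher than d4G+ by 4.01 and 3.17. The largest positive differences were those of Enpp2 (2.38), Tub (1.77), Sox2 (1.73), Tspan2 (1.72, a tetraspanin) and Jph4 (1.71, a junctophilin). Enpp2 read 10, 11 and 11.81 in d5G-, above all d5Glow arrays (7.35, 8.24 and 9.21), which in turn were above all d5Ghigh arrays (5.85, 5.90 and 5.91). Groups of 3 arrays were too small for a test of single outlying arrays.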

How the results depend on the processing

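Counts are given as higher and lower genes for d5Glow against d4G+ (20 and 10 as reported), against d5Ghigh (7 and 53) and against d5G- (30 and 139). Recomputed intensities gave 20 and 9, 7 and 52, 29 and 131. An offset of 50 gave 12 and 12, 1 and 35, 15 and 82. Scaling by the 75th percentile gave 20 and 2, 2 and 51, 18 and 149. The 33 untreated arrays alone gave 10 and 5, 5 and 43, 18 and 103. Slide as a block gave 18 and 6, 5 and 45, 33 and 144, and as a random block 26 and 12, 13 and 61, 46 and 174. Only probes well above background gave 27 and 17, 7 and 64, 39 and 167. An adjusted p of 0.05 gave 44 and 29, 15 and 73, 53 and 181, and 1 probe a gene 19 and 10, 5 and 52, 28 and 135. The compared groups alone gave 0 in each comparison, where fewer arrays estimate the spread, with 2827, 2024 and 2337 genes at an unadjusted p under 0.05. The interaction called 0 genes in every setting run.

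The replicate block gave 29 and 15 against d4G+, 11 and 65 against d5Ghigh and 39 and 166 against d5G-. Same-numbered d5Glow and d4G+ arrays had correlations of 0.16, 0.06 and 0.5, so they share a number and are not taken as pairs.

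Leaving out 1 array gave 6 to 63 higher and 2 to 24 lower against d4G+, 1 to 28 and 28 to 106 against d5Ghigh, and 3 to 129 and 43 to 274 against d5G-. Against d4G+ the counts were 6 and 2 without d5Glow replicate 1, 12 and 5 without replicate 2, 63 and 24 without replicate 3, and 11 and 5, 11 and 4, and 7 and 5 without d4G+ replicates 1, 2 and 3. Of the 30 called symbols 18 of 20 and 8 of 10 remained without d5Glow replicate 3. For the 25 named called genes, each followed on the probe shown, 81 of 150 values with 1 array left out and 72 of 225 with other processing lost the call. Of these values 0 changed direction. Directions that did change belong to genes near 0: Prdm14 with the slide block (-0.03), Hbb-y without d4G+ replicate 2 (0, from -0.46 to 0 over the arrays left out) and Spi1 with the percentile scaling (-0.09) and without d4G+ replicate 3 (-0.02, from -0.02 to 0.39). The causes were not tested. Probes near background give changes that are too small.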
